A study of Mus musculus with 24 samples.

Results

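The genes described here are 36 genes of the response to low oxygen and of glycolysis, taken as a fixed list of gene symbols. A gene counted as measured when the platform annotation gave a probe set, a group of short probes for 1 transcript, to its symbol alone, and a gene with several was represented by the brightest on average over 24 arrays. Of the 36 genes, 33 had such a probe set among 18193 genes named on the array, array-control probe sets left out. Gpi1 and Eno1, which encode enzymes of the second and the ninth step of glycolysis, were not analysed here. Gapdh was measured only by array-control probe sets and is given as a level without a test. The other 33 members were all among the 12811 genes tested, which had to exceed the median of their array in at least 3 of 24 arrays. Car9 met this minimum exactly, in 3 arrays that were all from the maxilla (control distal 1, control proximal 2 and mutant distal 2), Adm exceeded the median in 10 and Slc16a3 in 19, and the other 30 tested members did so in all 24.

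RNA came from jaws of C57B6 mouse embryos at embryonic day 14.5, in 8 groups of 3 arrays: mutant and control, each for the maxilla, or upper jaw, and the mandible, or lower jaw, cut into a distal and a proximal end. Mutants came from crosses of Wnt1-Cre;Tgfbr2 fl/+ with Tgfbr2 fl/fl mice, so the gene of the type II TGF-beta receptor was deleted where Wnt1-Cre is active, in the neural crest that forms most jaw skeleton and connective tissue. Muscle fibres, endothelium, blood and surface epithelium of the jaw do not come from that lineage and kept the gene. Mutants were recognised by their cleft palate and calvarial defect, and controls were littermates, whose own floxed and Cre alleles the labels do not give. The labels call each piece bone, but they do not say whether a replicate was 1 embryo, a litter or a pool, so the p-values reflect the spread among these samples alone, part or all of which may be technical.

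Cells adjust to low oxygen mainly through the transcription factor HIF, whose alpha subunit is hydroxylated by the oxygen-dependent enzymes of the Egln family, bound by the Vhl ubiquitin ligase and degraded while oxygen is plentiful. When oxygen is short the subunit is stable, pairs with Arnt and activates genes that carry its binding site, among them glucose transporters, glycolytic enzymes, Pdk1, which keeps pyruvate from being turned into acetyl-CoA in mitochondria, and Vegfa, which draws in blood vessels. Control of HIF is chiefly at the protein, which these arrays did not measure. In the embryonic jaw, cartilage forms without vessels and relies on this programme, and muscle is rich in glycolytic enzymes, so the makeup of a dissected piece can also set the level of these genes.

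The core of the HIF binding site is ACGTG or GCGTG, read on either strand (CACGT and CACGC on the other). It was looked for in the 250 bases before each start site in the RefSeq promoter table (build GRCm38.p6), which held 50 promoters of 33 of the 36 genes. ACGTG occurred in 23 of the 50 promoters (46%) against 16.6% of 32851 promoters in the table, GCGTG in 27 (54%) against 28.2%, and either motif in 40 (80%) against 38.6%. Of the 33 genes, 30 had a match in at least 1 promoter. The promoters were not matched for base composition, several belong to 1 gene and may overlap, and a match is a run of letters, not a binding site. The windows of the 4 genes that rose in mutant mandibles are printed with every match in capitals, 5′ to 3′ on the gene's strand. They are Ankrd37 at chr8:45999851-46000100 (minus strand, 4 matches, of which 1 pair overlaps), Pdk1 at the first of its starts, chr2:71872974-71873223 (plus strand, 1 match), Ddit4 at chr10:59951771-59952020 (minus strand, 2 matches) and Vegfa at the first of its starts, chr17:46032378-46032627 (minus strand, 0 matches). Pdk1's other start in the table, with a window at chr2:71874654-71874903, had 0 matches. Vegfa's other start, with a window at chr17:46025164-46025413, had 2 matches.
Ankrd37: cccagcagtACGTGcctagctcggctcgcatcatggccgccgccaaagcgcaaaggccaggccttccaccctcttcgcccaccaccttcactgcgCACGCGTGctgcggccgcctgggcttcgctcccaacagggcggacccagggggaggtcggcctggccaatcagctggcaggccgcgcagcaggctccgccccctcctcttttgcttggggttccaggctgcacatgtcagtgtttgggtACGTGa
Pdk1: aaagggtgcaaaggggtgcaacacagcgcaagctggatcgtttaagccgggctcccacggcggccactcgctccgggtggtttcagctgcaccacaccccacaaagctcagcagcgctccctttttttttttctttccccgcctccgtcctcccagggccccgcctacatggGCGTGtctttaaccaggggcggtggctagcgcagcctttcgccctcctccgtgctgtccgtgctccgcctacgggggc
Ddit4: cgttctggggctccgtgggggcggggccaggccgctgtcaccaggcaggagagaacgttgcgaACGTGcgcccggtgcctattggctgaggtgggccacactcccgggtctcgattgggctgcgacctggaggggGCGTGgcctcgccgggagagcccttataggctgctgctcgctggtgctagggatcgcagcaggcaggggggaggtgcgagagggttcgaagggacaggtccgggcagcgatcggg
Vegfa: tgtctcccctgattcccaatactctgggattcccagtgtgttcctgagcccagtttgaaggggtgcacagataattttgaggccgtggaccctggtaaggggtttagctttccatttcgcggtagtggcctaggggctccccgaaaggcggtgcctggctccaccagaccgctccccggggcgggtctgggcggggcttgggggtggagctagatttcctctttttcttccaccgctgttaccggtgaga

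Values were log2 signals between 3.44 and 14.8, with array medians from 6.93 to 7. The probe set for Tgfbr2 was not lower in mutants. By limma it rose in proximal maxillae (0.78, adjusted p = 8.9e-05) and also in proximal mandibles (0.32, adjusted p = 0.0472). The sources do not place its probes relative to the deleted part, so it checks no label. Among bone markers, the mean of 8 tested genes, each centred on its mean over all arrays, was highest in the proximal mandible (0.95 to 1.69) and below 0 in the distal mandible and proximal maxilla. In 3 mutant maxilla arrays (distal 1, proximal 1 and proximal 2) 9 markers of nasal epithelium averaged -0.40, -1.19 and -1.10, against 0.11 to 2.75 in control maxillae. The same 3 arrays were low for 22 cartilage genes (-2.04, -2.17 and -2.34, controls -0.05 to 1.62) and high for 28 skeletal muscle genes (1.14, 1.97 and 0.91, controls -2.24 to -0.72). Proximal maxilla mutant 3 lay within its controls for cartilage (0.63, controls 0.35 to 1.62). Its muscle mean was above them, at -0.18 against -1.86 to -0.72. Keratinocyte means of all proximal maxilla mutants, -0.01 to 0.44, also exceeded those of their controls, -1.94 to -0.20. The main member counts and calls in each maxilla region and for the difference between jaws are therefore given with and without the 3 arrays. Results for other gene lists, for the difference between ends and for the average of regions are given only with them. In a dissected piece, fewer cells of a type and less RNA per cell cannot be told apart.

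The hypoxia and glycolysis genes differed widely in how far they varied between arrays. Gapdh, Tpi1, Ldha, Pgam1 and Pgk1, enzymes of the lower glycolytic pathway, varied least, with standard deviations from 0.0704 to 0.11. Gapdh ranged from 13.96 to 14.22, Tpi1 from 13.18 to 13.53, Ldha (lactate dehydrogenase A, which turns pyruvate into lactate) from 13.30 to 13.74 and Pgk1 from 13.29 to 13.69 over all 24 arrays. Aldoc, an aldolase best known from neural tissue, varied most, with a standard deviation over 24 arrays of 0.934 and a range from 8.73 to 11.71. Slc2a3, a glucose transporter, followed with 0.614 and Adm, the gene of the vessel-dilating peptide adrenomedullin, with 0.609. Car9, the surface carbonic anhydrase widely used as a marker of hypoxia, stayed between 5.96 and 7.08, near or below the array medians. Signals so low are dominated by background, which understates changes.

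In the distal mandible, Ankrd37, Vegfa and Pdk1 rose in mutants (3 of 33 members, with adjusted p under 0.05 by limma) and 0 fell. Of all genes tested, 0.273% were called higher and 0.468% lower. In the proximal mandible the same 3 genes and Ddit4 rose (4 of 33) and 0 fell, where 1.27% of all genes were called higher and 3.07% lower. Most other members stood higher without passing. In the distal mandible 29 of 33 lay above 0 (58.4% of all genes), with a median of 0.31 against 0.03 over all genes, and 21 had every mutant array above every control array (13% of all genes). In the proximal mandible 30 lay above 0 (41.2% of all genes), with a median of 0.20 against -0.04, and 13 did not overlap in that direction (8.86% of all genes). An unadjusted p under 0.05 was reached by 17 members higher and 0 lower in the distal mandible (7.13% and 5.52% of all genes), and by 11 higher and 1 lower in the proximal mandible (5.96% and 13.5%).

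Ankrd37, an ankyrin repeat gene used as a HIF target in expression signatures, had the largest difference of the members in both mandible regions. In the distal mandible its log2 signals were 7.96, 8.24 and 8.37 in the 3 controls and 8.82, 8.91 and 9.18 in the 3 mutants. The proximal mandible gave 8.35, 8.45 and 8.45 in controls and 8.97, 9.30 and 9.15 in mutants. The groups were apart in both regions, by more than the range within either. The differences were 0.78 ± 0.16 (SE, adjusted p = 0.0252, 1.72-fold) and 0.72 ± 0.16 (adjusted p = 0.0176, 1.65-fold).

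Pdk1 encodes a kinase that switches off pyruvate dehydrogenase. Its distal mandible signals were 10.90, 10.98 and 10.87 in controls and 11.34, 11.41 and 11.36 in mutants. The proximal mandible controls stood at 11.17, 11.21 and 10.96 and the mutants at 11.55, 11.59 and 11.37. Each group was tight and no mutant overlapped a control of its region. Pdk1 was higher by 0.45 ± 0.091 (adjusted p = 0.0217) and 0.38 ± 0.091 (adjusted p = 0.0232). Bnip3, a mitochondrial gene that promotes the removal of mitochondria, stood at 0.47 and 0.61 (adjusted p = 0.295 and 0.0700). Its proximal mandible controls were 11.51, 11.54 and 11.57 and its mutants 11.93, 12.22 and 12.30, which did not overlap.

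Vegfa, the main growth factor for blood vessels, had distal mandible signals of 9.36, 9.50 and 9.57 in controls and 9.84, 9.91 and 10.07 in mutants. For the proximal mandible, controls were 9.61, 9.43 and 9.49 and mutants 9.82, 9.85 and 10.04. All mutants exceeded all controls in both. The differences were 0.46 ± 0.097 (adjusted p = 0.0270) and 0.40 ± 0.097 (adjusted p = 0.0276). The other members of this role passed in neither, with Adm at 0.38 and 0.14 and Car9, below the array median in every mandible array, at -0.07 and 0.21.

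Ddit4 (REDD1) restrains the growth regulator mTOR in stressed cells. Its proximal mandible signals were 12.12, 12.23 and 12.13 in controls and 12.39, 12.65 and 12.55 in mutants, which did not overlap. It rose by 0.37 ± 0.084 (adjusted p = 0.0192) there and stood at 0.33 ± 0.084 in the distal mandible, short of the threshold (adjusted p = 0.0731). Mxi1, a Myc antagonist, stood at 0.31 and 0.33 and Ndrg1, a stress-induced gene, at 0.57 and 0.20 in the distal and proximal mandible. Ndrg1 controls of the distal mandible were 9.92, 9.87 and 10.45 and mutants 10.58, 10.29 and 11.07, which overlapped. Kdm3a, a histone demethylase, was at 0.32 and 0.12, and Bhlhe40, a transcriptional repressor, at 0.22 and -0.03, without passing.

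**Figure D1:**
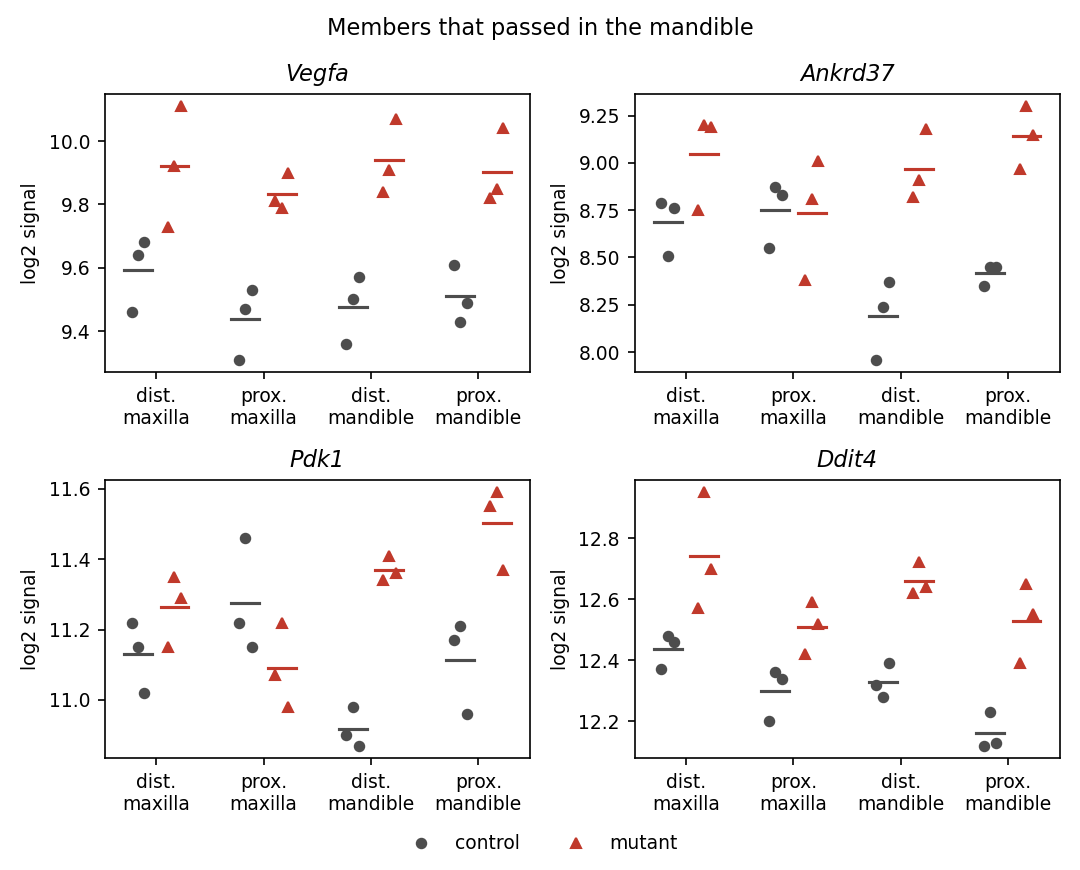
Log2 signal of Ankrd37, Pdk1, Vegfa and Ddit4 in each array, by jaw region, with circles for controls, triangles for mutants and a horizontal line for the mean of 3. In both mandible regions every mutant triangle of the 4 genes lies above every control circle of the region.

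Among oxygen sensors, the level of Hif1a itself, the alpha subunit, was 0.16 and 0.12 higher in the distal and proximal mandible, without passing. Egln3, a HIF target that feeds back on HIF, stood at 0.76 ± 0.22 in the distal mandible (adjusted p = 0.109), with controls at 8.91, 8.82 and 9.31 and mutants at 9.66, 9.61 and 10.05. Egln1, the main sensor, had distal mandible controls of 10.66, 10.72 and 10.75 and mutants of 10.84, 10.78 and 11.04. These groups touched nowhere, but the difference was small (0.18, adjusted p = 0.382).

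Of the transporters, Slc2a1 (GLUT1, the widespread glucose importer) had distal mandible signals of 11.59, 11.45 and 12.30 in controls and 12.53, 12.22 and 12.79 in mutants. Control 3 overlapped mutant 2, and the difference was 0.74 ± 0.22 (adjusted p = 0.125). The proximal mandible gave 0.45 (adjusted p = 0.256) and the groups did not overlap. Slc16a3, the lactate exporter, stood at 0.33 and 0.41, and Slc2a3 at 0.18 and -0.45. None of the 3 transporters passed in the mandible.

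The 12 tested members of glycolysis gave 0 calls in either mandible region, and 11 of 12 lay above 0 in each, with medians of 0.25 and 0.12. In the distal mandible Aldoa was at 0.27, Pgk1 at 0.21, Pgam1 at 0.21, Tpi1 at 0.16 and Ldha at 0.13, and the groups did not overlap for any of these 5. Pfkl and Pfkp, subunits of phosphofructokinase, stood at 0.23 and 0.31 there and at 0.17 and 0.08 in the proximal mandible. Larger estimates with wider errors came from Pfkfb3 (0.71 ± 0.28), which makes the activator of phosphofructokinase, Aldoc (0.61 ± 0.50) and Eno2 (0.39 ± 0.16). Distal mandible Eno2 was 7.66, 7.79 and 7.50 in controls and 7.97, 8.14 and 7.99 in mutants. Hexokinase 1, the first enzyme, was the exception to the common sign, with Hk1 at -0.11 and -0.28 in the distal and proximal mandible, while Hk2 was at 0.34 and 0.11. Gapdh stood at 0.00 in both.

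P4ha1 and P4ha2 encode the catalytic subunits of the enzyme that hydroxylates collagen prolines and are HIF targets. They differed in sign between ends, at -0.03 and -0.23 in the distal and 0.44 and 0.23 in the proximal mandible. Proximal mandible P4ha1 was 11.72, 11.43 and 11.54 in controls and 11.92, 12.01 and 12.08 in mutants, without overlap (adjusted p = 0.117).

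Arrays with the same replicate number deviated together in the mandible, and a fit with the number as a block made more calls. With it 8 members passed in the distal mandible, all higher, adding Slc2a1 (adjusted p = 0.00151), Pfkfb3 (0.00211), Ddit4 (0.00810), Egln3 (0.0197) and Kdm3a (0.0398). The block gave 7 in the proximal mandible, all higher, adding Bnip3 (adjusted p = 0.00914), Slc2a1 (0.0119) and P4ha1 (0.0203). The share of all genes called in that fit is not given here, so these counts cannot be set against all genes. Within numbers 1, 2 and 3, the median difference over members was 0.28, 0.33 and 0.33 in the distal and 0.06, 0.36 and 0.24 in the proximal mandible. Number 1 of the proximal mandible was the weakest, with 21 of 33 members above 0, where 28.8% of all genes were above 0. Leaving out single arrays ended calls in the fit without the block. For the distal mandible 0 members passed without control 1, without mutant 1 or without mutant 3, and 1 without control 2 or mutant 2. For the proximal mandible 0 passed without control 3, 1 without mutant 2 and 2 without control 1.

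Cell markers moved with genotype in the mandible too. Skeletal muscle genes averaged 0.72 to 1.55 in control and -0.66 to 0.21 in mutant distal mandibles, and 0.69 to 2.18 against 0.15 to 0.71 in proximal mandibles, with 28 of 28 below 0 in both and Ckm alone past the threshold. Cartilage genes averaged -0.35 to 0.87 in control and -1.92 to 0.13 in mutant distal mandibles. In the proximal mandible they went the other way, at -1.05 to 0.69 in controls and 0.71 to 1.26 in mutants, which did not overlap, although 0 of 22 passed. Keratinocyte genes averaged -0.26 to 1.32 in control and 0.88 to 1.70 in mutant distal mandibles, where Sprr3 and Krt6b of 18 passed. Of 14 proliferation genes, 12 fell in the proximal mandible (3.07% of all genes), with Kif11, Aurkb, Bub1 and Mki67 the furthest, and so did Isl1 of the neuron list. With the muscle and nasal means as covariates, Ankrd37 kept its call in both mandible regions (distal 0.66, adjusted p = 0.0210, proximal 0.64, adjusted p = 0.0074), and Ddit4 kept it in the proximal mandible (0.28, adjusted p = 0.0248). Pdk1 kept it in the proximal (0.30, adjusted p = 0.0337) but not the distal mandible (0.34, adjusted p = 0.0634), and so did Vegfa (0.36, adjusted p = 0.0383, and 0.41, adjusted p = 0.0713). With the cartilage mean as covariate 11 members passed in the distal mandible. In the proximal mandible 4 did, Ankrd37 (0.65, adjusted p = 0.0235), Ddit4 (0.34, adjusted p = 0.0269), Pdk1 (0.37, adjusted p = 0.0306) and Vegfa (0.37, adjusted p = 0.0385). Shares of all genes called in these covariate fits are not given here. The part of epithelium and proliferation was not tested. The difference between the 3′ and 5′ probe sets of Gapdh, a sign of RNA breakdown, was -0.32 to -0.16 in control and -0.27 to -0.11 in mutant distal mandibles. That of Actb was 0.12 to 0.26 in control and 0.15 to 0.40 in mutant distal mandibles. In proximal mandibles Gapdh gave -0.27 to -0.23 in controls and -0.34 to -0.25 in mutants. Actb gave 0.13 to 0.20 and 0.10 to 0.24 in the same groups.

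In the distal maxilla 0 members passed by limma in either direction, where 0.109% of all genes were called higher and 0.0859% lower. At an unadjusted p under 0.05, 12 members were higher and 0 lower (3.91% and 5.28% of all genes). Again 30 of 33 lay above 0 (47% of all genes), with a median of 0.24 against -0.01. The largest estimates were Adm at 0.81 ± 0.27 (adjusted p = 0.321), P4ha2 at 0.49, P4ha1 at 0.46 and Slc16a3 at 0.44. Adm stood at 6.38, 6.83 and 6.57 in controls and 8.13, 7.36 and 6.72 in mutants, so mutant 3 overlapped the controls. P4ha2 was 10.81, 10.20 and 10.69 in controls and 11.36, 10.71 and 11.08 in mutants, with overlap at mutant 2. Vegfa, at 9.46, 9.64 and 9.68 in controls and 9.73, 9.92 and 10.11 in mutants, did not overlap (0.33, adjusted p = 0.234), and neither did Ddit4 (0.30, adjusted p = 0.201), Aldoa, Tpi1 or P4ha1. These 5 members compare with 5.81% of all genes, and 0 members lay apart in the lower direction (5.83% of all genes). The within-number medians were -0.02, 0.39 and 0.26. Without mutant 1, which was low for nasal markers, 32 of 33 members lay above 0 with a median of 0.32, Hk1 (-0.13) being the exception. Then 14 were higher at an unadjusted p under 0.05 (3.72% of all genes), 0 passed, and the smallest adjusted p among members was 0.0931.

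In the proximal maxilla the outcome depended on 2 of the 3 mutant arrays. With all arrays, Adm, Slc2a3 and Vegfa rose and Aldoc, Car9 and Hk1 fell (3 and 3 of 33, by limma), against 12.2% of all genes called higher and 11.1% lower, beside 9.09% of the members in each direction, a share no higher than that of all genes. Only 12 of 33 lay above 0 (51.7% of all genes), and the median was -0.05 against 0.01. The 4 mitochondrial members (Pdk1, Bnip3, Higd1a and Ak4) all lay below 0, with a median of -0.31, and 0 passed. The limma fit with the replicate number as a block added Pdk1 (-0.18, adjusted p = 0.0373), Bnip3 (-0.39, 0.0327) and Kdm3a (-0.27, 0.0169) as lower. It added Ddit4 (0.21, adjusted p = 0.0146) as higher. Whether the number pairs samples in the maxilla is not known, and the share of all genes called in that fit is not given here. Without mutants 1 and 2, which were low for nasal markers, 26 of 33 members lay above 0, with a median of 0.12. Bnip3 (0.10) and Ak4 (0.17) were then above 0, and Pdk1 (-0.29) and Higd1a (-0.12) below.

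Adm rose by 1.80 ± 0.27 (adjusted p = 0.000389), from 6.07, 6.44 and 6.31 in controls to 8.54, 8.16 and 7.51 in mutants. The controls lay below their array medians and the mutants above, so the size of the change may be understated. The 10 arrays in which Adm exceeded the median were mostly mutant, so its rise is not independent of the filter. Slc2a3 was 9.88, 9.97 and 10.52 in controls and 11.70, 11.16 and 11.20 in mutants, a rise of 1.23 ± 0.31 (adjusted p = 0.00882). Vegfa was 9.31, 9.47 and 9.53 in controls and 9.81, 9.79 and 9.90 in mutants (0.40, adjusted p = 0.00722). All mutants of these 3 genes, mutant 3 included, exceeded all controls.

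Aldoc was 11.70, 11.71 and 11.65 in controls and 8.73, 9.22 and 11.50 in mutants, and fell by 1.87 (SE 0.50, adjusted p = 0.0114). The 2 low arrays were those low for nasal markers, and mutant 3, with a nasal mean of 2.03, stood at -0.19 from the control mean. Car9 was 6.77, 7.04 and 6.94 in controls and 6.13, 6.34 and 6.39 in mutants (-0.63, adjusted p = 0.0203), and Hk1 10.56, 10.55 and 10.51 against 10.31, 10.08 and 10.26 (-0.32, adjusted p = 0.0323). Neither gene overlapped, and mutant 3 was low in both. Car9 met the filter only with control 2 of this region, so its fall is not independent of the filter. Mxi1 was 11.08, 10.96 and 11.01 in controls and 10.45, 10.68 and 11.10 in mutants, and Kdm3a 11.11, 11.14 and 11.24 against 10.68, 10.84 and 11.17. In both, mutants 1 and 2 were low and mutant 3 lay with the controls.

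**Figure D2:**
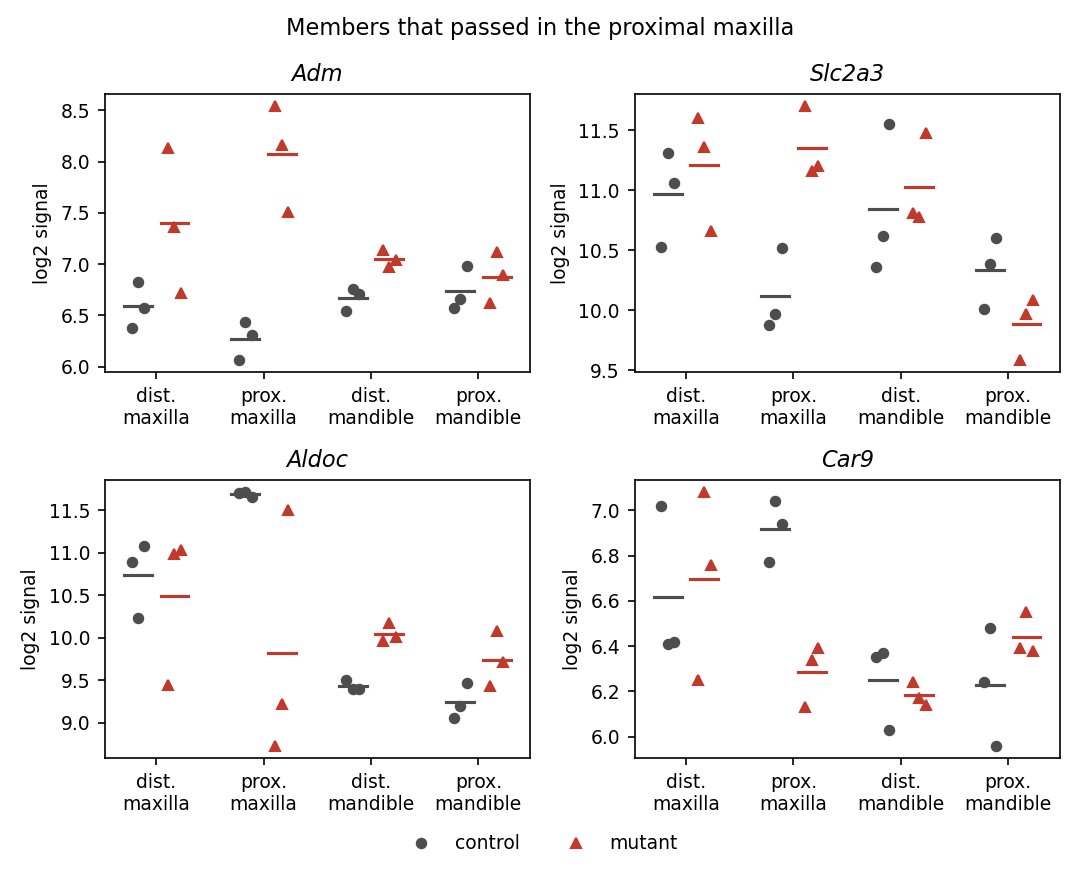
Log2 signal of Adm, Slc2a3, Aldoc and Car9 in each array, by jaw region, with circles for controls, triangles for mutants and a horizontal line for the mean of 3. Adm and Slc2a3 mutants lie above all controls in the proximal maxilla, while Aldoc has 2 mutants at 8.73 and 9.22 and 1 at 11.50 beside controls of 11.65 to 11.71.

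Without mutants 1 and 2 a single mutant array is left in the proximal maxilla, assumed to vary like the other groups. In that fit Adm alone passed (1.24, adjusted p = 0.0199), with Slc2a3 at 1.08, Vegfa at 0.47, Car9 at -0.52, Hk1 at -0.28 and Aldoc at -0.19. With the muscle and nasal means as covariates 0 members passed and the median was 0.28, and with the cartilage mean 2 passed. Without mutant 1 alone 2 members passed, without mutant 2 alone 3, and without mutant 3 alone 9. In the fit of all arrays 7 of 9 nasal, 11 of 17 neuron and 17 of 22 cartilage genes fell here, while 18 of 28 muscle, 12 of 18 keratinocyte, 12 of 15 macrophage and 10 of 16 endothelial genes rose. Of all genes 12.2% rose and 11.1% fell. Epcam of the keratinocyte list (-1.15) and Erg of the endothelial list (-0.77) were called lower, against the direction of their lists. Macrophage genes averaged 0.19 to 0.95 in mutants and -0.28 to -0.26 in controls. The furthest were Bpifa1, Sult1e1, Reg3g and Cnga2 of the nasal list, Neurod1, Nhlh2, Insm1 and Elavl4 of the neuron list, and Matn1, Acan, Hapln1 and Mia of the cartilage list, which fell. Those that rose furthest were Myog, Tnnt2, Mybph and Myod1 of muscle, Dmkn, Krtdap, Krt1 and Krt10 of keratinocytes, and Lyve1, Cd68, Fcgr3 and C1qa of macrophages. Of the shorter lists, Cdh19, Gfra3 (Schwann cells) and Ermap (erythroid) rose, and Mbp (Schwann cells), Kif11, Mcm2 and Top2a (proliferation) fell.

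Over the 4 regions, 9 of 33 members lay above 0 everywhere (27.3%, against 14.4% of all genes), and 16 lay above 0 in all but the proximal maxilla (48.5%, against 3.86%). The latter count rests on proximal mutants 1 and 2, without which 26 of 33 lay above 0 there. For the average of regions, the 4 arrays of 1 genotype and number were averaged first, and 3 mutant were compared with 3 control averages. By limma 0 members passed, where 0.703% of all genes were called higher and 0.39% lower, and at an unadjusted p under 0.05, 8 were higher and 1 lower (8.4% and 8.29% of all genes). The median was 0.17 against 0.00. Adm (0.78, adjusted p = 0.0769), Egln3 (0.47), Ankrd37 (0.46, adjusted p = 0.121), Vegfa (0.40, adjusted p = 0.0712) and Ddit4 (0.30, adjusted p = 0.108) were among the 8, and Hk1 (-0.21, adjusted p = 0.188) was the 1 lower. With the replicate number as a block 1 member passed, Vegfa (adjusted p = 0.0488). Over the mandible regions alone 4 passed, Ankrd37 (0.75, adjusted p = 0.0182), Pdk1 (0.42, adjusted p = 0.0406), Vegfa (0.43, adjusted p = 0.0407) and Bnip3 (0.54, adjusted p = 0.0443). Shares of all genes called with the block or over the mandible alone are not given here.

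Whether the mutant effect differed between jaws was tested as an interaction, mandible minus maxilla. By limma 3 members passed as higher in the mandible (3.93% of all genes did) and 1 as lower (4.33%). Pdk1 differed by 0.44 ± 0.091 (adjusted p = 0.0133), Ankrd37 by 0.58 ± 0.16 (adjusted p = 0.0358), Mxi1 by 0.45 ± 0.13 (adjusted p = 0.0394) and Adm by -1.05 ± 0.27 (adjusted p = 0.0275). Vegfa differed by only 0.07 (95% confidence interval -0.14 to 0.27) and Ddit4 by 0.10. Without the 3 maxilla arrays that were low for nasal markers, Pdk1 alone passed (0.47, adjusted p = 0.0499), with Ankrd37 at 0.36, Mxi1 at 0.22 and Adm at -0.58. Between ends, distal minus proximal, 0 members passed (0% of all genes in each direction), and at an unadjusted p under 0.05 Ldha, Pdk1 and Higd1a were higher (4% of all genes) and 0 lower (3.67%). The difference between ends lay above 0 for 28 of 33 members, and for 59.2% of all genes. Within the mandible alone 0 passed as well (0% of all genes in each direction), and P4ha1 (-0.47, adjusted p = 0.617) was the 1 member lower at an unadjusted p under 0.05 (2.78% of all genes), with 0 higher (5.22%) and 25 of 33 above 0 (66.5%). Within the maxilla alone 0 passed (0% and 0.00781% of all genes), with 8 higher (3.88%) and 2 lower (6.74%) at an unadjusted p under 0.05, Slc2a3 and Adm being the lower ones.

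Controls alone gave the normal map of these genes. At the proximal end, the mandible had higher P4ha2 (1.22 ± 0.20, adjusted p = 0.000173) and P4ha1 (0.50, adjusted p = 0.0197) than the maxilla and lower levels of 9 members (2 and 9 of 33, against 16.6% and 17% of all genes). The 9 were Aldoc (-2.44), Ndrg1 (-0.80), Mxi1 (-0.75), Eno2 (-0.75), Slc2a1 (-0.72), Car9 (-0.69), Kdm3a (-0.66), Bnip3 (-0.56) and Egln1 (-0.22). Car9 was below the array median in every mandible array, so its difference may be understated. It was tested only through 3 maxilla arrays, the jaw where it was higher. Its place among the 9 is therefore not independent of the filter. Neuron markers averaged 2.21 to 2.43 in control proximal maxillae and -1.28 to 0.28 in proximal mandibles, and their part in the higher Aldoc and Eno2 was not tested. Bone markers (0.95 to 1.5 against -1.49 to -0.34) and muscle markers (0.69 to 2.18 against -1.86 to -0.72) were also higher in these control proximal mandibles than in the maxillae, and their part was not tested. At the distal end P4ha2 was higher (0.76, adjusted p = 0.0260) and Mxi1 lower (-0.52, adjusted p = 0.0186) in the mandible, 1 and 1 of 33 against 3.08% and 5.73% of all genes. Between the ends of the mandible P4ha1 passed, lower distally by limma (-0.59, adjusted p = 0.0336), against 3.34% of all genes called lower and 2.44% higher. This call was kept in 9 of 16 alternative settings and lost with the 12 control arrays alone. With the replicate block Slc2a1 (0.69, adjusted p = 0.000524) and P4ha2 (-0.51, adjusted p = 0.00744) passed too. Bone markers averaged 0.95 to 1.5 at that proximal end and -0.45 to -0.38 at the distal end of control mandibles, and their part was not tested. Between the ends of the maxilla 0 members passed by limma (5.09% of all genes were called higher and 3.33% lower), with 2 higher and 1 lower at an unadjusted p under 0.05.

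Other genes of the pathway were taken from lists. Of 15 other genes of the HIF machinery, 0 passed in the distal mandible and 1 in the proximal mandible, Cited2, a HIF target that competes with HIF for its coactivators (0.38, adjusted p = 0.0247). Cited2 also rose in the proximal maxilla (0.65) and over the average of regions (0.43, adjusted p = 0.0368), and Arnt rose in the proximal maxilla (0.29). Of 34 other HIF targets, 0 passed in the distal mandible, with 26 above 0 (58.4% of all genes) and a median of 0.14. Those of the proximal mandible included 2 that rose (1.27% of all genes did). They were Edn1, the gene of the peptide endothelin 1 (0.52, adjusted p = 0.0257), and Pgm1, which links glycogen to glycolysis (0.44, adjusted p = 0.0132). Pgm1 was the 1 of 34 that rose in the distal maxilla (0.52, adjusted p = 0.0186), where 0.109% of all genes rose. In the proximal maxilla 11 of 34 rose and 4 fell (12.2% and 11.1% of all genes). Nrn1 (2.04), Cxcr4 (-1.18), Edn1 (0.88) and Ppfia4 (0.85) were the furthest. The average of regions called Edn1 (0.52), Prelid2 (0.46) and Vldlr (0.43) higher.

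Of 18 other glycolytic genes, Pdk4, the pyruvate dehydrogenase kinase of fasting and fat use, rose in the proximal mandible (0.77, adjusted p = 0.0376), the proximal maxilla (0.86) and the average of regions (0.62, adjusted p = 0.0309), and 0 passed in the distal mandible or distal maxilla. Their medians in the mandible were 0.00 and -0.08, against 0.25 and 0.12 for the 12 glycolytic members. The other list includes muscle forms such as Pgam2, and the muscle markers lay below 0 in both mandible regions. The part of muscle in this contrast was not tested. Of 24 genes of the citrate cycle and respiratory chain, 1 passed in the mandible, citrate synthase (Cs) in the proximal end (-0.21, adjusted p = 0.0294), where 1 of 24 lay above 0 (41.2% of all genes). The pentose phosphate genes (6 tested) and gluconeogenic genes (3 tested) gave 0 calls in the mandible. In the proximal maxilla Pgam2 (1.54), the muscle form of phosphoglycerate mutase, rose, Ldhb (-0.66) and Gpd2 (-0.64) of the other glycolytic genes fell, and Taldo1 (-0.36) and Tkt (-0.21) of the pentose phosphate pathway fell.

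Vegfa acts through receptors on endothelium, of which Kdr is the main one. Kdr fell by 0.44 in the distal mandible (adjusted p = 0.0228) and by 0.44 in the proximal mandible (adjusted p = 0.0103). Angpt2 (0.80, adjusted p = 0.0230) and Angpt1 (0.61, adjusted p = 0.0384), which tune vessel stability, rose in the proximal mandible. Of 16 endothelial markers, Kdr alone passed in the distal mandible. In the proximal mandible Cldn5 (-0.60), Erg (-0.59) and Kdr fell and Eng rose (0.26). In the proximal maxilla 12 of 12 tested genes of the VEGF list lay above 0 (51.7% of all genes), with a median of 0.25, and Tek (1.09), Vegfd (0.92) and Nrp1 (0.64) rose. There 10 of 16 endothelial markers rose (12.2% of all genes), Tek, Sox18 (0.65) and Pecam1 (0.56) the furthest, and Erg fell by 0.77. Erg also fell in the distal maxilla (-1.05) and over the average of regions (-0.75). The 10 genes of the integrated stress response, another route to Ddit4, gave 0 calls in the mandible, with medians of -0.10 and -0.01. In the proximal maxilla Atf3 rose (0.53) and Chac1 (-0.96), Trib3 (-0.93) and Ppp1r15a (-0.41) fell. Erythroid genes (11 tested) gave 0 calls in the mandible, where their control and mutant ranges overlapped at both ends.

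Other probe sets of a member mostly shared the sign of those chosen. For Pdk1 they gave 0.42 and 0.32 in the distal and 0.34 and 0.25 in the proximal mandible from the other 2 tested. Both further probe sets of Slc2a1 gave 0.69 and 0.67 in the distal mandible, and that of Egln3 gave 0.76. Vegfa's dimmer probe set stood at 0.17 and 0.22 in the distal and proximal mandible, below the 0.46 and 0.40 of the chosen one. Adm's other probe set gave 2.25 in the proximal maxilla, and that of Hk1 gave -0.58 in the distal mandible, where the chosen one gave -0.11. Those of Hif1a disagreed in sign. Ankrd37, Ddit4 and Bnip3 had 1 probe set each.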

How the data were processed

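Expression was measured on Affymetrix mouse arrays in 24 samples, with labelled RNA made from 5 µg of total RNA per sample, per the labels' protocols. The deposited values are log2 signals, 1 for each probe set on each array. Per the submitters' processing notes the authors used RMA (background correction, normalization between arrays and summary of probes) and Partek 6.6. Their settings, and a genome build, are not stated in these sources. Changes of dim genes are understated on this scale. Of 45101 probe sets, 34945 had 1 gene symbol, 932 several and 9160 none, and 64 were array controls, left out except for Gapdh. A linear model of all 8 groups (limma 3.58.1 under R 4.3.3, eBayes moderation, two-sided tests) was fitted once, with Benjamini-Hochberg adjustment over all 12811 genes tested and a threshold of 0.05; the script was tested on simulated data. The median standard error over members was 0.157 in a region and 0.112 in the regional average (log2), with 3 arrays a group limiting the precision. The members, lists and tests were chosen with earlier results of these data known.

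All 36 members are named, those past the threshold in any comparison with every array of the region where their adjusted p was lowest, and from each other list up to 4 passing genes with the largest differences between mutant and control in a comparison. Same-numbered mutant and control arrays correlated in their deviations from the group means at 0.151, 0.506 and 0.488 in the distal mandible, 0.299, 0.323 and 0.297 in the proximal mandible and 0.184, 0.594 and 0.196 for the average of regions, so the numbers were taken to pair samples there, from the data alone. Alternatives were the replicate block as a fixed or random term, single arrays left out, array weights, quantile and median scaling, an intensity trend, other filters and probe set rules, marker means as covariates, smaller fits and the maxilla without 3 arrays. Single arrays were not left out for the differences of the mutant effect between jaws or between ends.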

Additional observations from a re-analysis of the deposited data

Results flagged for a closer look

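The effect of the mutation differed between jaws, by a test of the interaction itself (limma, adjusted over all genes), for 4 members. Pdk1 was at 0.45 and 0.38 in the distal and proximal mandible and at 0.14 and -0.18 in the distal and proximal maxilla, a difference of 0.44 (adjusted p = 0.0133). Ankrd37 was at 0.78 and 0.72 in the mandible and 0.36 and -0.01 in the maxilla, a difference of 0.58 (adjusted p = 0.0358). Mxi1 was at 0.31 and 0.33 in the mandible and 0.00 and -0.27 in the maxilla, a difference of 0.45 (adjusted p = 0.0394). Adm went the other way, at 0.38 and 0.14 in the mandible and 0.81 and 1.80 in the maxilla, a difference of -1.05 (adjusted p = 0.0275). Of 12 or 13 alternative settings each, the call was kept in 12 of 13 for Pdk1, 10 of 13 for Ankrd37, 9 of 13 for Mxi1 and 9 of 12 for Adm. None of these settings left out a single array, so how far the interaction rests on 1 array was not tested. Marker lists moved with genotype in the maxilla, and without the 3 maxilla arrays that were low for nasal markers Pdk1 alone passed.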

How the results depend on the processing

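Of the counts of passing members recomputed under an alternative, 145 stayed within 1.5 times the main count and 65 did not. The cause was not tested. Shares of all genes called under the alternatives are not given here. Array weights gave 14 members in the distal mandible, 11 in the proximal mandible, 5 in the distal maxilla, 14 in the proximal maxilla, 5 for the average of regions, 11 for the jaw difference, 2 for the end difference and 12 for it within the maxilla, and in controls 4 and 6 between the ends of the mandible and maxilla and 13 between distal ends of the jaws. The replicate block gave 8, 7, 2 (Vegfa and Ddit4), 10, 1 and 9 in the first 6 of these, and in controls 3 between the ends of the mandible and 7 between distal ends, and it left the counts of the other comparisons within 1.5 times. In the maxilla same-numbered arrays correlated at 0.0951, 0.350 and 0.197 (distal) and 0.0355, 0.266 and -0.0127 (proximal). Whether the number pairs samples there is not known. The random block (consensus correlation 0.342) gave 10 for the jaw difference, 1 for the end difference within the maxilla, and in controls 5, 3 and 9. The cartilage covariate gave 11 in the distal mandible, 2 in the proximal maxilla and 1 for the jaw difference; the muscle and nasal covariates gave 7 in the proximal mandible, 1 in the distal maxilla and 0 in the proximal maxilla and for the jaw difference, and turned Aldoc in the proximal maxilla to 0.30. Without the 3 maxilla arrays low for nasal markers, 1 passed in the proximal maxilla and 1 for the jaw difference. Only the 6 arrays compared gave 2 in the proximal mandible; only the 12 control arrays gave 0 and 2 between ends of the mandible and maxilla and 7 between distal ends. For the average of regions the 24-array fit gave 14, the mandible alone 4, and the intensity trend and quantile normalization 1 each, and quantile normalization gave 1 between control maxilla ends. Leaving out 1 replicate gave 0 to 3 in the distal mandible, 0 to 3 in the proximal mandible, 0 in the distal maxilla, 2 to 9 in the proximal maxilla and 0 to 1 for the average, and in controls 0 to 2 between mandible ends, 0 between maxilla ends, 0 to 2 between distal and 7 to 10 between proximal ends of the jaws. Ankrd37 kept its call in 14 of 19 settings in the distal and 16 in the proximal mandible, Pdk1 in 13 and 15, Vegfa in 11 and 14, and Ddit4 in 15 in the proximal; in the proximal maxilla Adm kept it in 18 of 19, Vegfa in 18 of 20, Slc2a3 in 16 of 20, Aldoc in 14 of 20, Car9 in 12 of 19 and Hk1 in 10 of 20. Adm and Car9 were left out by the stricter filter (12 arrays above the median), so that setting is not among their 19. With 3 arrays a group and signals near background, the sizes of the Car9 and Adm differences are uncertain.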
